A study of Mus musculus with 8 samples.

Results

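The Vmn2r genes of mouse chromosome 17 were examined: 30 protein-coding vomeronasal receptor genes, from Vmn2r90 to Vmn2r120, of 48831 genes in the deposited tables. Members were the genes with a numbered Vmn2r symbol whose exons the tables place on chromosome 17, in order of their start, with 1 further gene set aside by the selection and not analysed here. The rule that chose these genes used symbol and position and no expression value. Of these, 29 had enough reads for testing and Vmn2r103 did not.

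RNA was sequenced from whole vomeronasal epithelium, the nasal tissue whose neurons sense pheromones, in libraries from C57BL/6J mice of 8 weeks. The 8 libraries formed 4 groups of 2, which were male non-flushed pools, female non-flushed pools, flushed single males and flushed single females. Each pool combined tissue of 2 mice that was not flushed of blood, and each flushed library came from 1 mouse. The labels name no mutation, transgene or agent apart from the flushing step. A protocol shared by all samples mentions heparin flushing and so differs from the descriptions of the pools, which were followed here. Flushing and the number of mice per library changed together, and any difference in sequencing run would have changed with them. These cannot be told apart, and the word preparation below covers all of them.

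Vmn2r genes encode G protein-coupled receptors with a large extracellular domain that binds peptides and proteins, such as pheromones in urine and tears. They are used by the sensory neurons of the basal layer of the epithelium, which signal through the G protein subunit Gnao1. A basal neuron typically expresses a variable receptor gene of the family together with broadly expressed members such as Vmn2r1 or Vmn2r2. The 30 genes here are all of the variable kind, and no individual ligand is assigned to any of them below. A bulk level thus mixes how many neurons use a gene with how much RNA each makes, and fewer cells and less RNA per cell cannot be told apart in these data.

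Total counts were between 18763557 and 24965088 per library. Markers of the basal neurons were present in every library, with Gnao1 at a mean of 55.0 CPM (counts scaled to library size) and Meis2 at 143 CPM. Omp, a protein of mature sensory neurons, had a mean of 396 CPM. Trpc2, the ion channel of vomeronasal transduction, was listed at 0 in every library, and 97.5% of its exon bases are shared on the same strand with Xntrpc, which had a mean of 26.8 CPM. Reads that overlap more than 1 gene were not counted, so Trpc2 could not serve as a marker. Among the genes examined, only Vmn2r110 shared exon bases with another gene, a pseudogene on the opposite strand, and the counting used strand.

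By start position the genes fell into 2 stretches and 2 single genes, when neighbouring starts more than 500 kb apart were separated. On GRCm38 the first stretch ran from Vmn2r90 to Vmn2r110 (chr17:17703941-20596259) and held 22 genes, 15 on the plus strand and 7 on the minus strand. The second ran from Vmn2r111 to Vmn2r117 (chr17:22538881-23479597) and held 6 genes, 3 on each strand. Vmn2r118 (chr17:55583069-55624672) and Vmn2r120 (chr17:57495804-57545314) lay alone, both on the minus strand. Of the 30 genes, 28 had 7 exon entries, and exon length per gene was between 3262 and 17195 bases.

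Coding sequences, read from GENCODE M21 on the same build, followed these stretches. Within the first stretch, pairs of genes were 71.34 to 98.49% identical with a median of 85.55%, and within the second they were 85.92 to 96.89% identical with a median of 92.18%. Between the stretches identity was 58.54 to 62.25%. The nearest Vmn2r relative of 27 of the 30 genes was another gene of chromosome 17, and for the remaining 3 it lay elsewhere. These were Vmn2r90, nearest to Vmn2r61 of chromosome 7 (83.20%), Vmn2r118, nearest to Vmn2r8 of chromosome 5 (68.81%), and Vmn2r120, nearest to Vmn2r65 of chromosome 7 (64.41%).

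**Figure D1:**
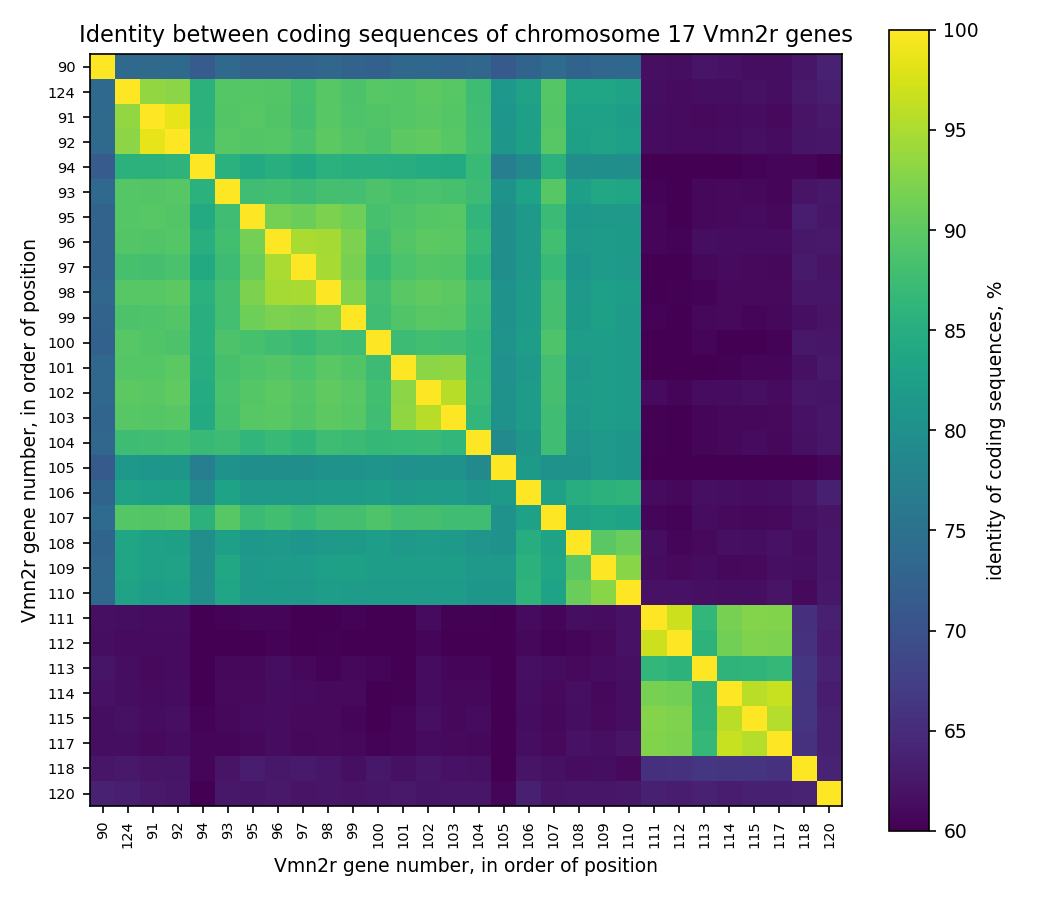
Heat map of the identity between coding sequences of all pairs of the 30 genes, in percent, with genes on both axes in order of position. The 22 genes of the first stretch and the 6 of the second form separate squares, with 58.54 to 62.25% between them, and Vmn2r118 and Vmn2r120 stand apart from both.

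Because reads were 100 bases long, near-identical genes can share reads, and a read that aligned to several places was divided among them. The closest sets are shown by 100 coding bases at the start of the last coding exon, with capitals at the positions that vary within a set. Vmn2r92 and Vmn2r91, the closest pair (98.49% identical), are shown with Vmn2r124, the relative next to them on the chromosome, because a sex difference reported below concerns the pair.
Vmn2r124 (chr17:18073301-18073400, plus strand): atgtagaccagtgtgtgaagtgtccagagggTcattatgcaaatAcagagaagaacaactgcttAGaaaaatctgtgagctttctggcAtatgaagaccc
Vmn2r91 (chr17:18135724-18135823, plus strand): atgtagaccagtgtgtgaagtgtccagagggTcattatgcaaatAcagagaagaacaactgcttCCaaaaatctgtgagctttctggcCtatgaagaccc
Vmn2r92 (chr17:18184247-18184346, plus strand): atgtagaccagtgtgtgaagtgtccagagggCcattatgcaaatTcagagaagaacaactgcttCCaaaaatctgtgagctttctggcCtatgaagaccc
Vmn2r111 and Vmn2r112 (96.89% identical) start the second stretch, and their windows differ at 3 positions.
Vmn2r111 (chr17:22548761-22548860, minus strand): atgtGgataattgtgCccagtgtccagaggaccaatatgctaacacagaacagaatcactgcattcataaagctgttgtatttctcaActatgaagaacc
Vmn2r112 (chr17:22618214-22618313, plus strand): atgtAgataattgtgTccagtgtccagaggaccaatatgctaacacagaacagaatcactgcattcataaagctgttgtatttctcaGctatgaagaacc
Vmn2r114, Vmn2r115 and Vmn2r117 differ at only 2 positions of the same window.
Vmn2r114 (chr17:23291754-23291853, minus strand): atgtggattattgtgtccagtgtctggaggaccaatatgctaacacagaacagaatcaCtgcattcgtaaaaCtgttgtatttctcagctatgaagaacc
Vmn2r115 (chr17:23359209-23359308, plus strand): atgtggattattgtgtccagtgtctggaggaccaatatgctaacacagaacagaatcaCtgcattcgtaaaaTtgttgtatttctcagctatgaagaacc
Vmn2r117 (chr17:23460495-23460594, minus strand): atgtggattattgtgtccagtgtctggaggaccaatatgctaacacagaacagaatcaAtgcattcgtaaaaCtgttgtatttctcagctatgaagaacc
The pair of Vmn2r95 and Vmn2r98 (92.18% identical) and the pair of Vmn2r109 and Vmn2r110 (92.85% identical) are shown because Vmn2r95 and Vmn2r110 later stand apart in the comparison of preparations. Their windows differ at 6 and at 17 positions.
Vmn2r95 (chr17:18451432-18451531, plus strand): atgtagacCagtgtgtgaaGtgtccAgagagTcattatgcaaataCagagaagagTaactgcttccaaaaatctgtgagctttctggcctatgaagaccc
Vmn2r98 (chr17:19080383-19080482, plus strand): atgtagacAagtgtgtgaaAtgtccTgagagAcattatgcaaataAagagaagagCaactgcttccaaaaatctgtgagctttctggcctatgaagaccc
Vmn2r109 (chr17:20541346-20541445, minus strand): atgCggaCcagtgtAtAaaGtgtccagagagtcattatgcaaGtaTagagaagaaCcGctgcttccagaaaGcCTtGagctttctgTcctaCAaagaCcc
Vmn2r110 (chr17:20574658-20574757, minus strand): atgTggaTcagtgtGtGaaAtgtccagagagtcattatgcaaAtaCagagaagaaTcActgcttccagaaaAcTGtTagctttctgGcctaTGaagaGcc

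Of all 100-base windows in a coding sequence, the share found in no other intact Vmn2r coding sequence was 53.4% for Vmn2r92 and 55.7% for Vmn2r91. It was 72.0% for Vmn2r114 and 74.2% for Vmn2r117, and 86.1% or more for all other genes, including 100% for 10 of them. A count that was not a whole number, which shows that divided reads entered it, occurred in at least 1 library for 29 of the 30 genes and in all 8 libraries for 9 of them. Vmn2r118 alone had whole counts throughout. Levels within the close sets can therefore be partly shared, and reads divided between relatives would make their difference smaller. The places to which divided reads aligned were not traced, and exon bases outside the coding sequences were not scored. Vmn2r90, with 100% of its windows unique, also had counts that were not whole in all 8 libraries.

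Levels per exon length, in RPKM (CPM per kilobase of exon), covered a 172-fold range between the highest and the lowest mean. Vmn2r90 was highest, at 4.36 ± 1.55 RPKM (SD, n = 8). Its values were 2.94 and 3.08 in the male pools, 2.85 and 2.91 in the female pools, 6.30 and 5.23 in the flushed females, and 6.14 and 5.45 RPKM in the flushed males. All 4 flushed libraries of Vmn2r90 were above all 4 pools. Vmn2r96 followed at 3.12 ± 1.02 RPKM (SD, n = 8), with 2.33 and 2.23 in the male pools, 2.05 and 2.12 in the female pools, 3.95 and 3.92 in the flushed females, and 4.22 and 4.195 RPKM in the flushed males. Vmn2r112 followed at 2.72 ± 1.44 RPKM (SD, n = 8), but its exon length is the shortest of the 30, and by CPM without length it was 16th while Vmn2r96 was 8th and Vmn2r90 stayed first. It had 1.29 and 1.62 RPKM in the male pools, 1.68 and 1.53 in the female pools, 5.20 and 3.39 in the flushed females, and 4.17 and 2.89 RPKM in the flushed males. The flushed libraries of Vmn2r112 were all above its pools and spread widely.

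At the other end, 3 genes were nearly silent. Vmn2r103 had a mean of 0.0253 RPKM, with counts of 5 and 4 in the male pools, 3 and 3 in the female pools, 8.5 and 10 in the flushed females, and 10 and 4 in the flushed males. Vmn2r101 had a mean of 0.0324 ± 0.0140 RPKM (SD, n = 8), from counts of 2.5 and 4.5 in the male pools, 6.5 and 6.5 in the female pools, 6 and 14 in the flushed females, and 12 and 5 in the flushed males. The groups of Vmn2r101 overlapped. Vmn2r109 had a mean of 0.0366 ± 0.0150 RPKM (SD, n = 8), from counts of 4.83 and 2.5 in the male pools, 6 and 9.83 in the female pools, 7 and 10.67 in the flushed females, and 14.75 and 7.33 in the flushed males. Its groups overlapped too. Vmn2r98 came next from below at 0.201 ± 0.0967 RPKM (SD, n = 8), with counts of 19.58 and 11.92 in the male pools, 11.5 and 25.5 in the female pools, 53.17 and 50.08 in the flushed females, and 59.75 and 48.67 in the flushed males. Of the 29 pairs of neighbours in the order of levels, 6 kept their order in all 8 libraries and the other 23 did not. The 6 were Vmn2r90 over Vmn2r96, Vmn2r124 over Vmn2r117, Vmn2r111 over Vmn2r108, Vmn2r102 over Vmn2r94, Vmn2r97 over Vmn2r99 and Vmn2r98 over Vmn2r109. The mean ± SD over all libraries, which includes the spread between preparations, overlapped for 28 of the 29 pairs, all but Vmn2r98 and Vmn2r109.

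**Figure D2:**
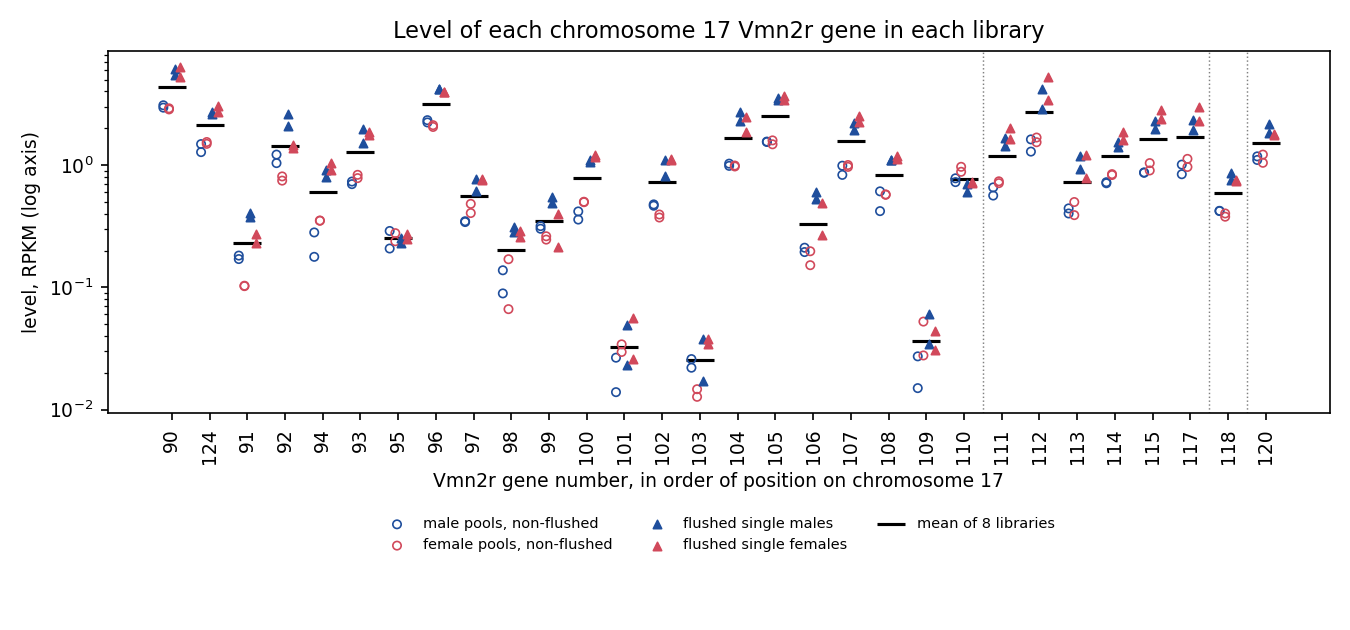
Level of each gene in each library, in RPKM on a log axis, with genes in order of position and dotted lines between the stretches. Open circles are pools, triangles flushed single mice, blue male and red female, and bars the mean of 8 libraries. Vmn2r101, Vmn2r103 and Vmn2r109 lie near or below 0.06 RPKM, and Vmn2r90 is highest.

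Close relatives differed in level. Vmn2r102 and its neighbour Vmn2r103 are 95.64% identical, yet the mean level of Vmn2r102 was 28.8 times that of Vmn2r103, between 17.9 and 47.0 times in single libraries. Vmn2r110 was at 20.8 times the mean level of Vmn2r109 and above it in each of the 8 libraries. Vmn2r92 was at 6.17 times the mean level of Vmn2r91, between 5.05 and 7.82 times in single libraries, although reads can be divided between them. Vmn2r112 was at 2.32 times the mean RPKM of Vmn2r111, but their exon lengths are 3262 and 11634 bases. By CPM without length the order was the reverse in every library, with means of 8.87 for Vmn2r112 and 13.7 for Vmn2r111. Vmn2r111 had 0.656 and 0.563 RPKM in the male pools and 0.711 and 0.736 in the female pools. It had 2.00 and 1.62 RPKM in the flushed females, and 1.68 and 1.43 in the flushed males. Vmn2r114 and Vmn2r117 were nearer, with Vmn2r117 at 1.41 times the mean RPKM of Vmn2r114. Their exon lengths also differ, at 13249 bases for Vmn2r114 and 7047 for Vmn2r117. By CPM Vmn2r114 was the higher of this pair in every library, with means of 15.8 and 11.8. The 6 genes of the second stretch covered a 3.72-fold range, from 0.731 to 2.72 RPKM, and had a median of 1.42 RPKM. The 22 genes of the first stretch had a median of 0.745 RPKM and held the highest and the lowest genes.

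Beside the other intact Vmn2r genes, those of chromosome 17 had a median level of 0.809 RPKM, those of chromosome 7 one of 1.52 RPKM (51 genes), and those of other chromosomes one of 1.84 RPKM (38 genes). Median exon length, by which RPKM divides, was 9644 bases on chromosome 17, 8348 on chromosome 7 and 7783 elsewhere. Its part in the order of the levels was not tested. These medians were not compared by a test, and genes of a family are not independent. The genes of chromosome 17 gave 13.2 to 15.04% of all CPM of these Vmn2r genes in each library. The genes of other chromosomes include the broadly expressed kind, Vmn2r1 to Vmn2r6 (means of 5.67 to 92.8 CPM). These enter both the median of that group and the total behind the share.

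The sequence before each gene was then read from the RefSeq promoter table (GRCm38.p6), in which all 30 genes had a window of 250 bases before to 50 after the start. For 29 genes the RefSeq start is the start in the deposited tables. GENCODE starts lie upstream of it for 28 genes, and the median distance over all 30 was 147.5 bases, so much of a window can be transcribed. The largest distance was 8576 bases, for Vmn2r96, whose window does not reach its GENCODE start. The letters TAATTA, the core of many homeodomain sites and a palindrome, occurred in 8 of 30 windows (26.7%), in 12 of 86 windows of other Vmn2r genes (14.0%) and in 5.29% of all 32851 windows. The TATA box letters TATAAA, searched on both strands, occurred in 7 of 30 windows (23.3%), in 23.3% of other Vmn2r windows and in 13.62% of all. In the 30 windows these matches began from 234 to 10 bases before the start or 18 bases after it, and the count took no account of place. The motif of Ebf factors, searched as an inverted repeat, occurred in none of the 30, in none of the other Vmn2r windows and in 0.9% of all, and the palindrome GCCNNNGGC in 1 of the 30 (3.3%), in 9.3% and in 16.59%.

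Most TAATTA matches sat at 1 place. A 30-base stretch around it aligned, with at most 8 mismatches to that of Vmn2r91, in 19 genes, all of them in the first stretch. This alignment was made after the sequences were seen. Of the 19, 7 held TAATTA and 6 held TGATTA at the 6 aligned letters, which are in capitals, and the remaining 6 held other letters. Vmn2r91, Vmn2r92 and Vmn2r99 had the same 30 bases, and the nearly silent Vmn2r101 and Vmn2r103 also held TAATTA.
Vmn2r91 (chr17:18084936-18084965, plus strand): ggaaTAATTAgtgtgacagactgagtcatc
Vmn2r92 (chr17:18151809-18151838, plus strand): ggaaTAATTAgtgtgacagactgagtcatc
Vmn2r99 (chr17:19362007-19362036, plus strand): ggaaTAATTAgtgtgacagactgagtcatc
Vmn2r95 (chr17:18423976-18424005, plus strand): ggaaTAATTAgtgtcccagactgagtcatc
Vmn2r101 (chr17:19577108-19577137, plus strand): ggaaTAATTAttgtgacagactgactcatc
Vmn2r103 (chr17:19773239-19773268, plus strand): ggaaTAATTAttatgacagactgacttaac
Vmn2r124, Vmn2r93, Vmn2r110 and Vmn2r109 are examples with TGATTA, and Vmn2r105, with a high level, had TTATTA.
Vmn2r124 (chr17:18049363-18049392, plus strand): ggaaTGATTAgtgtgatagactgagtcatc
Vmn2r93 (chr17:18298155-18298184, plus strand): ggaaTGATTAgtctgagagaatgagtgatc
Vmn2r110 (chr17:20596359-20596388, minus strand): ggaaTGATTAgtgtgacagcctcactcatg
Vmn2r109 (chr17:20564872-20564901, minus strand): gaaaTGATTAgtgtgacagtttcacacatg
Vmn2r105 (chr17:20234965-20234994, minus strand): tgaaTTATTAttgtgacagcctcattcatt
The 8 genes with TAATTA anywhere in the window had a median of 0.291 RPKM and a range of 0.0253 to 1.42 RPKM, and the 22 without it had a median of 1.23 RPKM and a range of 0.0366 to 4.36 RPKM. The ranges overlapped, and Vmn2r91 and Vmn2r92 show a 6.17-fold difference in level with the same 30 bases. All genes of the second stretch are among the 22, so the split also follows position in part. These counts describe letters in related sequences, and no test was made.

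The comparison of preparations asked how levels differ between flushed single mice and non-flushed pools. With libraries scaled over all genes, 24 of the 29 tested genes were higher in flushed mice and 0 were lower (edgeR, adjusted p under 0.05), while with scaling over the vomeronasal receptor genes 12 were higher and 2 lower. Of all 20601 tested genes 22.6% were higher and 22.9% lower with the first scaling. The median log2 difference of the 29 genes was 1.18, and that of all genes was -0.017. In 24 of the 29 all 4 flushed libraries lay above all 4 pools, which held for 21.3% of all genes. The summed CPM of the 30 genes was 197 to 204 in the pools and 391 to 447 in the flushed mice, so the groups did not overlap. At an unadjusted p under 0.05, 1 gene was lower with edgeR (Vmn2r110), and at the adjusted threshold limma-voom called 1 lower and DESeq2 called 0.

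The 5 genes with the smallest p were Vmn2r105, Vmn2r115, Vmn2r107, Vmn2r114 and Vmn2r96. Vmn2r105 had 13.2 and 13.1 CPM in the male pools, 12.5 and 13.5 in the female pools, 31.1 and 29.0 in the flushed females, and 28.8 and 29.7 CPM in the flushed males. The flushed libraries of Vmn2r105 were all above the pools and close to each other. Its log2 difference was 1.18 ± 0.07 (SE; edgeR adjusted p = 1.4e-05). Vmn2r115 had 9.47 and 9.54 CPM in the male pools and 9.89 and 11.4 CPM in the female pools. In the flushed females it had 31.2 and 25.9 CPM, and in the flushed males 24.9 and 21.7 CPM. Its flushed libraries were also all higher than its pools, and the log2 difference was 1.36 ± 0.09 (SE).
Vmn2r107 had 10.8 and 9.10 CPM in the male pools, 10.58 and 10.96 in the female pools, 27.4 and 24.6 in the flushed females, and 24.1 and 21.3 CPM in the flushed males. Its groups did not overlap, and the log2 difference was 1.23 ± 0.08 (SE). Vmn2r114 went from 9.40 to 11.2 CPM to 18.7 to 24.5 CPM, a log2 difference of 1.05 ± 0.08 (SE). Vmn2r96 went from 10.58 to 12.02 CPM to 20.2 to 21.8 CPM, a log2 difference of 0.90 ± 0.07 (SE), and had the smallest residual spread of the tested genes (SD 0.027 on the log2 scale, against a median of 0.146).

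The largest difference belonged to Vmn2r94. It had 1.76 and 1.11 CPM in the male pools, 2.20 and 2.19 in the female pools, 6.53 and 5.73 in the flushed females, and 5.70 and 5.00 CPM in the flushed males. The log2 difference was 1.67 ± 0.17 (SE; edgeR adjusted p = 6.1e-05), and its flushed libraries did not overlap its pools. Apart from Vmn2r94 and the 5 genes above, those that passed had log2 differences from 0.74, for Vmn2r120, to 1.35, for Vmn2r100. By stretch, 16 of 21 tested genes of the first and 6 of 6 of the second were higher, as were both single genes, Vmn2r118 (0.94 ± 0.10) and Vmn2r120 (0.74 ± 0.08, both log2 ± SE). The second stretch had differences from 1.05 to 1.36.

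The 5 genes that did not pass were Vmn2r95, Vmn2r110, Vmn2r99, Vmn2r101 and Vmn2r109, all of the first stretch. Vmn2r95 had 2.15 and 2.996 CPM in the male pools, 2.47 and 2.87 in the female pools, 2.84 and 2.60 in the flushed females, and 2.38 and 2.62 CPM in the flushed males. Its groups overlapped fully and its log2 difference was -0.0063 ± 0.15 (SE; edgeR adjusted p = 0.978). Vmn2r98, its closest relative by coding sequence, passed at 1.27 ± 0.26 (log2 ± SE; edgeR adjusted p = 0.0031).
Vmn2r110 had 4.75 and 5.10 CPM in the male pools, 6.33 and 5.77 in the female pools, 4.67 and 4.77 in the flushed females, and 3.96 and 4.58 CPM in the flushed males. It was the gene whose estimate was most negative, at -0.29 ± 0.11 (log2 ± SE; edgeR adjusted p = 0.0605), and its groups overlapped only slightly. With limma-voom its adjusted p was 0.0494, and without flushed male 3 edgeR gave 0.0420, and over all 18 alternatives the adjusted p ranged from 9.0e-06 to 0.398.
Vmn2r99 had 1.71 to 2.21 CPM in the pools and 1.5, 2.78, 3.82 and 3.40 CPM in the flushed mice, with 1 flushed female below all pools. Its log2 difference was 0.51 ± 0.21 (SE; edgeR adjusted p = 0.0642), and it passed without that female (0.69, adjusted p = 0.0080), with a range of 0.0080 to 0.511 over all alternatives. Vmn2r101 (0.73 ± 0.44) and Vmn2r109 (0.49 ± 0.45, both log2 ± SE) did not pass either, and their pools and flushed libraries overlapped.

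**Figure D3:**
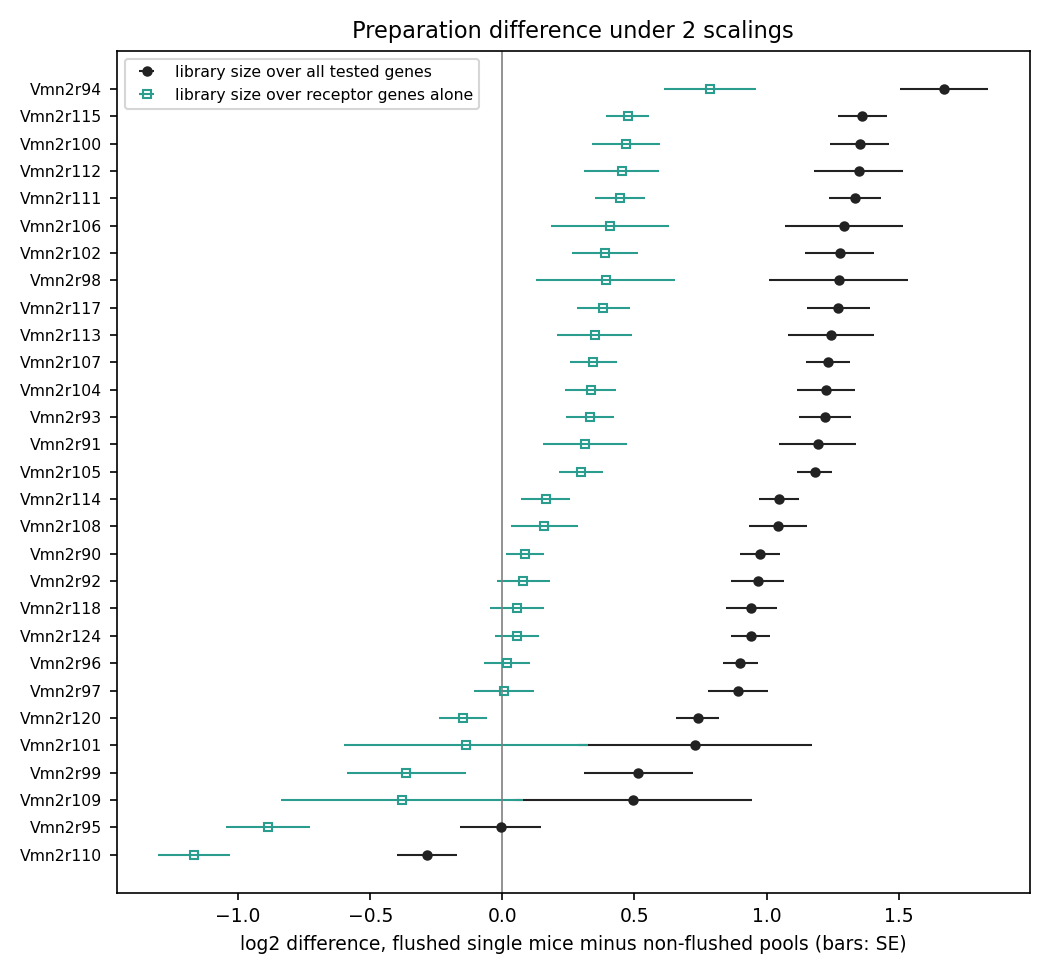
Log2 difference between flushed single mice and non-flushed pools for the 29 tested genes, with SE bars, with libraries scaled over all tested genes (filled circles) and over receptor genes alone (open squares). Vmn2r94 is farthest right and Vmn2r110 farthest left with both scalings.

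When libraries were scaled over the 506 genes with Vmn1r, Vmn2r or Fpr-rs symbols, the median of all genes moved to -0.90 and that of the 29 genes to 0.30. Of the 12 genes then higher, Vmn2r94 had the largest difference (0.79 ± 0.17, log2 ± SE). The 2 genes then lower were Vmn2r110 (-1.17, adjusted p = 9.0e-06) and Vmn2r95 (-0.89, adjusted p = 3.0e-04). With that scaling 1.12% of all genes were higher and 81.5% lower. Among other intact Vmn2r genes, scaled over all genes, 46 of 49 tested on chromosome 7 and 35 of 38 elsewhere were higher and 0 lower, with median log2 differences of 0.96 and 0.89. Those elsewhere include Vmn2r1 to Vmn2r6, which are also listed below as receptor partners.

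Markers of the basal neurons did not move in the same way. Of 7 genes listed as such markers, 2 were higher (Meis2, 0.24 ± 0.06, and B2m, 0.46 ± 0.09, both log2 ± SE) and 1 was lower (Calr4, -0.29 ± 0.09), with a median of -0.15. B2m is also made by most other cell types of the tissue. Gnao1 had a log2 difference of -0.15 ± 0.07 (SE; edgeR adjusted p = 0.086). Of 15 receptor partners of basal neurons in the tables, 7 were higher, namely Vmn2r1 to Vmn2r6 (0.71 to 1.29) and H2-M9, and none of the H2-M10 genes passed. Omp had -0.15 ± 0.10 (log2 ± SE).
Markers of blood cells fell in the flushed mice, and those of other tissues fell only in part. All 6 red cell markers were lower, and their summed CPM was 1644 to 2050 in the pools and 105 to 619 in the flushed mice. All 5 neutrophil markers were lower. Their summed CPM, 8571 to 11700 in the pools and 6582 to 9024 in the flushed mice, was mostly that of Ltf (mean 8500 CPM, log2 difference -0.40), and the other 4, at means of 19.0 to 73.3 CPM, had differences from -1.32 to -2.44. Of 5 fibroblast markers 3 were lower and 2 higher, with sums of 33890 to 44480 and 15760 to 21170 CPM. Of 5 bone markers 3 were lower, with sums of 772 to 847 and 410 to 629 CPM, and of 5 endothelial markers 4 were lower. Of the markers of apical neurons 2 of 5 were lower, of immature neurons 1 of 4 tested was lower and 1 higher, and of mature vomeronasal neurons 1 of 5 tested was lower. For sustentacular and gland cells 2 of 5 were lower, for muscle 1 of 4 and for main olfactory neurons 1 of 5. The part of these shifts in the receptor difference was not tested.

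The comparison of sexes found 1 of the 29 genes past the threshold. Vmn2r92 was higher in males, where 0.0825% of all genes were higher in males, 0.034% lower and 0.116% either (edgeR, adjusted p under 0.05). It had 12.8 and 15.1 CPM in the male pools, 9.99 and 9.23 in the female pools, 32.4 and 25.9 in the flushed males, and 16.9 and 18.01 CPM in the flushed females. Within each preparation both male libraries were above both female libraries. The log2 difference was 0.64 ± 0.10 (SE; edgeR adjusted p = 0.04997), which is at the edge of the threshold, and leaving out any library raised the adjusted p to between 0.0768 and 0.190. It was 0.53 within the pools and 0.74 within the flushed mice. DESeq2 gave an adjusted p of 2.2e-05, and over all 18 alternatives the adjusted p ranged from 1.5e-08 to 0.730. Of the marker lists, sex calls occurred only among gland genes, where Obp2a (0.57) and Lcn4 (0.53, both log2) were higher in males.

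Vmn2r91, its near-identical neighbour, showed the same order at a lower level. It had 1.86 and 1.99 CPM in the male pools, 1.13 and 1.12 in the female pools, 4.08 and 4.43 in the flushed males, and 2.96 and 2.53 CPM in the flushed females. The sexes did not overlap within either preparation, and the log2 difference was 0.68 ± 0.14 (SE; edgeR adjusted p = 0.225). With 55.7% of its coding windows unique, Vmn2r91 cannot be taken as an independent measurement from Vmn2r92. The coding sequence of Vmn2r91 has 2568 bases and its exon length is 10952 bases, and windows outside the coding sequence were not scored. Vmn2r124, 93.57% identical to Vmn2r91 and next to it, had 12.1 and 14.1 CPM in the male pools, 14.7 and 14.2 in the female pools, 26.0 and 25.1 in the flushed males, and 28.7 and 26.1 CPM in the flushed females. Its males lay below its females within both preparations, with a log2 difference of -0.12 ± 0.07 (SE; edgeR adjusted p = 0.750).

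**Figure D4:**
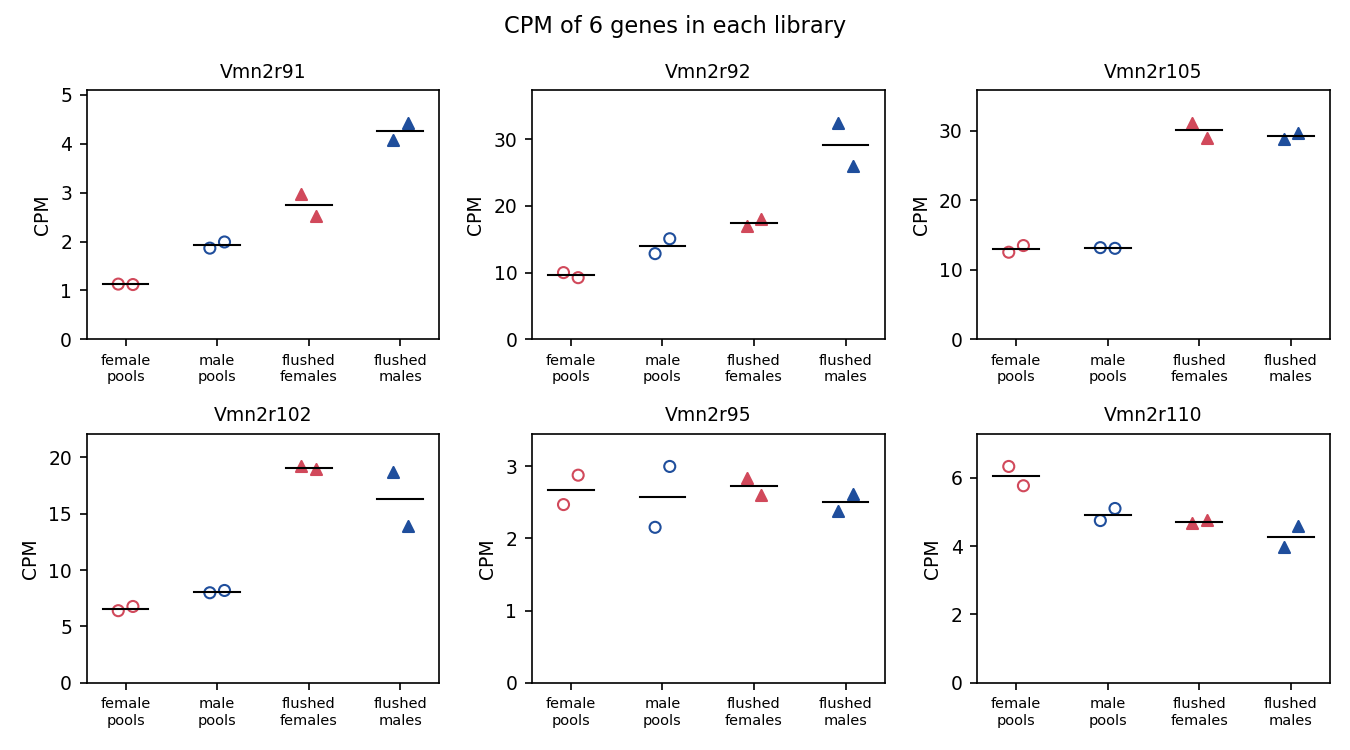
CPM of 6 genes in each library, with a line at each group's mean of 2 libraries and axes that start at 0. Vmn2r91 and Vmn2r92 are higher in males within both preparations, Vmn2r105 and Vmn2r102 are higher in flushed mice, and Vmn2r95 and Vmn2r110 are not.

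The next genes by p were Vmn2r114, Vmn2r99 and Vmn2r115, none of which passed. Vmn2r114 had 9.58 and 9.40 CPM in the male pools, 10.97 and 11.2 in the female pools, 18.7 and 20.4 in the flushed males, and 24.5 and 21.4 CPM in the flushed females. Its log2 difference was -0.23 ± 0.08 (SE; edgeR adjusted p = 0.486), with males below females within both preparations. Vmn2r115 had -0.23 ± 0.09 (log2 ± SE; edgeR adjusted p = 0.552) and likewise no overlap within preparations. Vmn2r99 had 2.21 and 2.10 CPM in the male pools against 1.82 and 1.71 CPM in the female pools. In the flushed males it had 3.82 and 3.40 CPM, and in the flushed females 1.5 and 2.78 CPM. Its log2 difference was 0.54 ± 0.21 (SE; edgeR adjusted p = 0.540).
In the second stretch 5 of 6 genes had estimates from -0.22 to -0.23, and the sixth, Vmn2r113, had 0.04. The 5 are at least 90% identical to one another through chains of relatives, can share reads, and none passed. Across the 29 genes, 6 had an unadjusted p under 0.05, 3 higher and 3 lower in males, where 7.96% of all genes did. Males lay above females within both preparations for 4 genes and below for 6, where 4.37% and 3.57% of all genes did so. The median log2 sex difference was -0.11, and that of all genes was -0.0029.

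**Figure D5:**
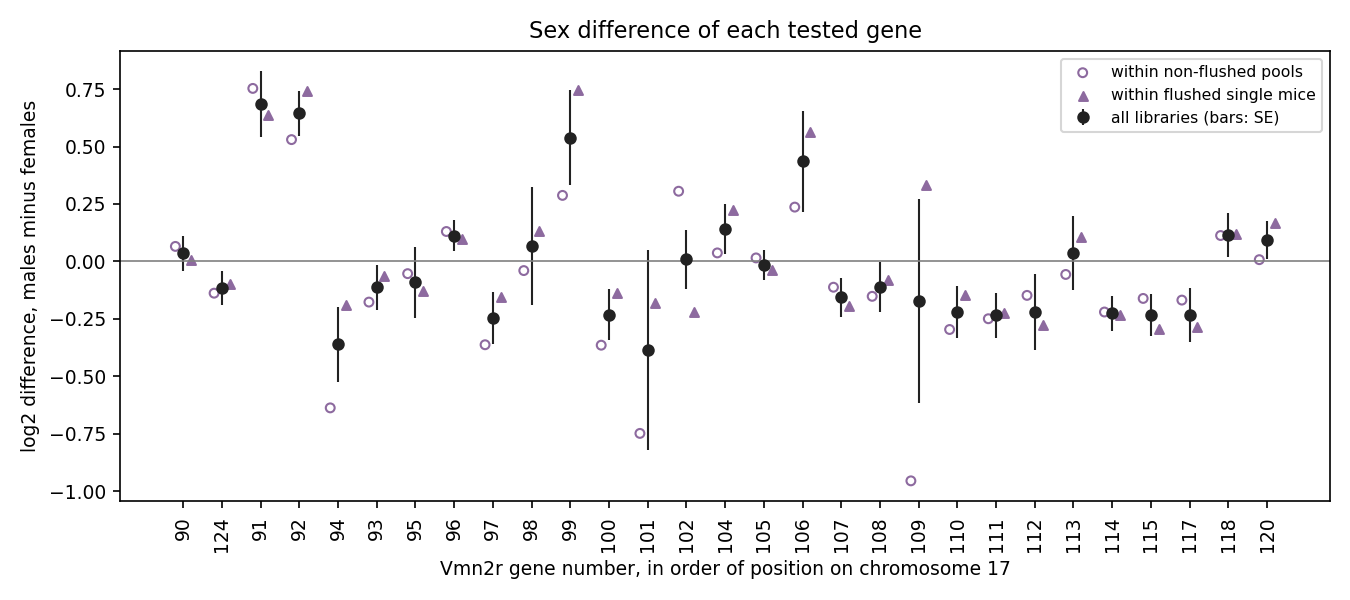
Log2 difference between males and females for the 29 tested genes in order of position. Filled circles are the estimates over all libraries with SE, open circles those within pools and triangles those within flushed mice. The estimates of Vmn2r91 and Vmn2r92 are the highest, and those of Vmn2r111, Vmn2r112, Vmn2r114, Vmn2r115 and Vmn2r117 lie between -0.22 and -0.23.

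Whether the sex difference itself changed with the preparation was tested with an interaction term. None of the 29 genes passed (edgeR), where 0.0485% of all genes did, and 1 had an unadjusted p under 0.05, where 3.25% of all genes did. That gene was Vmn2r102, named after its values were seen. Its male pools had 7.99 and 8.19 CPM against 6.40 and 6.77 CPM in female pools. Its flushed males had 18.7 and 13.9 CPM against 19.2 and 19.0 CPM in flushed females. Its sex difference was 0.31 within pools and -0.22 within flushed mice. The difference between them was -0.53 on the log2 scale (edgeR, unadjusted p = 0.0363, adjusted p = 0.9999).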

How the data were processed

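RNA of 8 vomeronasal epithelium libraries was polyA-selected, and strand-specific libraries were sequenced from 1 end over 100 bases, per the labels' protocols. Reads were aligned with STAR 2.7.1a and counted with featureCounts 1.6.5 on GRCm38, per the submitters' processing notes. The deposited tables hold unnormalized expected counts, per the file headers. Reads with several alignments were divided among them, and reads on more than 1 gene were left out.

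Genes were named by GENCODE M21 (48422 of 48831). Rounded counts went into the quasi-likelihood test of edgeR 4.0.16 (R 4.3.3) with TMM, filterByExpr on the 4 groups, and sex and preparation as additive terms over all 8 libraries, with the interaction in a further fit. Adjusted p-values are Benjamini-Hochberg over all 20601 tested genes and the threshold was 0.05. SE values are the absolute log2 difference over the root of its F statistic. CPM uses unrounded counts and TMM-scaled library sizes, and RPKM also the exon length of the deposited tables. The edgeR script was tested on simulated data.

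Coding sequences from GENCODE exons were aligned globally with Biopython 1.88 (match 1, mismatch -1, gap open -4, extension -0.5), in place of proteins, for which no table was used here. The genes described one by one were taken by rule, as the 3 highest and 3 lowest genes, the 5 smallest p in each comparison, the genes not passing by preparation, the extremes and the closest pairs, and a few others were added after their values were seen. Alternatives were DESeq2 1.42.0, limma-voom (limma 3.58.1), other scalings, filters and rounding, and leaving out libraries. The genes and lists were chosen with earlier results of these data known.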

Additional observations from a re-analysis of the deposited data

Results flagged for a closer look

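Among 60 sets of 4 libraries of 1 preparation, 1 value set apart by its gap occurred in 2. Chance gives about 1 set in 20, so 2 of 60 is no more than chance gives. The sets share the same libraries and are not independent. Both values set apart were those of flushed male 3. Vmn2r97 had 7.80 CPM in that library and 9.63, 9.72 and 9.82 CPM in the other flushed mice. Vmn2r102 had 13.9 CPM in that library and 18.7, 19.0 and 19.2 CPM in the other flushed mice.

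Vmn2r102 was higher in both male libraries than in both female libraries among pools, and lower among flushed mice. The interaction was -0.53 on the log2 scale (edgeR, unadjusted p = 0.0363, adjusted p = 0.9999).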

How the results depend on the processing

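The count of genes higher by preparation stayed between 24 and 25 under every alternative except the library size over receptor genes alone, which gave 12 higher, 2 lower and a median log2 difference of 0.299. The count lower was 1 with limma-voom on unrounded counts. Without 1 library at a time, the count lower was between 0 and 1 and the median between 1.048 and 1.199.

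By sex, the count higher in males was 2 without a filter on low counts, and 0 with the stricter filter, without X- and Y-linked genes, within pools, within flushed mice, and without any 1 library (0 to 0). The count of sex calls over all genes was 17 higher and 7 lower with edgeR and 90 and 34 with DESeq2.

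Estimates changed sign for 5 genes by preparation. With library size over receptor genes alone these were Vmn2r99 (-0.363), Vmn2r101 (-0.138), Vmn2r109 (-0.379) and Vmn2r120 (-0.148). Vmn2r109 was -0.069 within females. Vmn2r95, at -0.0063, was 0.023 without a filter, 0.003 with the stricter filter, 0.001 with counts rounded down, 0.005 with limma-voom, 0.029 within females, and between -0.071 and 0.115 without 1 library. The cause was not tested in any of these. No paired analysis was possible because pools were numbered in listed order and the single mice of both sexes share only the number 3. Counts of Vmn2r101, Vmn2r103 and Vmn2r109 were between 2.5 and 14.75 in each library.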
